A study of Mus musculus with 3 samples.

Results

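The genes described here handle iron in mouse macrophages: the ferritin chains Fth1 and Ftl1, the exporter Slc40a1, the uptake genes Tfrc, Slc11a2 and Steap3, the phagosomal transporter Slc11a1, the iron sensors Ireb2 and Aco1, and the siderophore binder Lcn2. They were chosen by symbol, and all 10 were found among the 55536 annotated genes of the deposited tables, of which 22028 are protein-coding. RNA bound to chromatin was sequenced from bone-marrow-derived macrophages, phagocytes grown in culture from marrow precursors of C57BL/6J mice. Lipid A, the portion of endotoxin that the receptor TLR4 senses, had been given to all cells at 100 ng/ml for 30 min. Ribosomal RNA was depleted before sequencing, so unspliced and non-polyadenylated RNA stayed in the libraries. There was 1 group of 3 libraries, numbered 1, 2 and 3 as biological replicates under the same donor record and made from 1 µg, 250 ng and 500 ng of RNA. The labels record neither age nor sex. No untreated library was analysed here, so the values are levels under lipid A and not responses to it.

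Cells store iron inside ferritin, a hollow shell of heavy chains, which oxidise iron, and light chains, which help it mineralise. Iron enters most cells bound to transferrin through the transferrin receptor, is reduced in the endosome and crosses its membrane, and it leaves through ferroportin. When iron is scarce, 2 iron regulatory proteins bind stem-loops in messenger RNA called iron-responsive elements. Bound in the 5′ untranslated region they block translation, and bound in the 3′ untranslated region of the transferrin receptor they protect the messenger from decay. Macrophages recycle the iron of old red cells, and in infection they hold iron away from microbes. Total levels of these RNAs on chromatin say nothing of translation.

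These stem-loops can be read from the transcripts themselves. A search was made on the sense strand of GENCODE M21 transcripts for a loop CAGTGN, a C followed by 5 stem bases and then the loop, and at least 4 of the 5 stem bases paired across the loop, G-T pairs allowed. At least 1 match was found in 7 of the 10 genes, against 13.0% of 21951 protein-coding genes and 9 of 54 other iron and heme genes. With all 5 pairs formed, 4 of the 10 genes matched, against 1.68% of protein-coding genes and 0 of the 54. The 4 genes were Fth1, Ftl1, Slc40a1 and Tfrc, all textbook carriers of the element, so the choice of the lists fixes these shares in part. Their sequences follow because they are the known targets of Ireb2 and Aco1. They run 5′ to 3′ on the transcript strand with the loop in capitals and T for U, at mm10 coordinates, and the last is the Slc11a2 match, which has 4 pairs.
Fth1, chr19:9982732-9982760, plus strand: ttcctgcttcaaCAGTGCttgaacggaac
Ftl1, chr7:45459779-45459807, minus strand: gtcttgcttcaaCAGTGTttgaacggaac
Slc40a1, chr1:45925465-45925493, minus strand: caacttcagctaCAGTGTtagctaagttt
Tfrc element 1, chr16:32631219-32631247, plus strand: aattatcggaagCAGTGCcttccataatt
Tfrc element 2, chr16:32631598-32631626, plus strand: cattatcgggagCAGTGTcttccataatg
Tfrc element 3, chr16:32631663-32631691, plus strand: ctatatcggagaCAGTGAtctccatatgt
Tfrc element 4, chr16:32631710-32631738, plus strand: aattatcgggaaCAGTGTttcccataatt
Slc11a2, chr15:100395153-100395181, minus strand: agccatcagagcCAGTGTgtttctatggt

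The 5′ matches of Fth1, Ftl1 and Slc40a1 lie in 5′ untranslated regions, 1 in each gene. The 4 Tfrc matches lie in the 3′ untranslated region of Tfrc-201 and are shared by the retained-intron model Tfrc-204. Tfrc was the only 1 of the 21951 protein-coding genes with a transcript that holds at least 4 matches with full stems. The matches of Slc11a1 and Lcn2 have 4 of 5 pairs and lie in coding sequence, and Steap3, Ireb2 and Aco1 had none. A match describes letters in a transcript and is not shown here to be bound.

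Annotated genes received 16301150, 17033725 and 16205704 expected counts in libraries 1 to 3. All 8 macrophage markers were detected, with summed levels of 2300, 2148 and 1964 CPM, which are counts scaled to library size. Of 12 neutrophil markers 1 was detected, Mmp8, with summed levels between 1.17 and 1.70 CPM, and Ly6g was listed at 0. Of 10 erythroid markers 2 were detected, Alas2 and Epor, with summed levels between 2.95 and 3.49 CPM and 4 listed at 0. The 6 markers of dividing cells were summed at 987 CPM in library 1 and at 507 and 506 CPM in libraries 2 and 3. Mki67 alone held 913, 422 and 414 CPM of these sums. Pcna, Top2a, Ccnb1 and Cdk1 were lowest in library 1 and Tk1 in library 2. Levels are given as TPM, which scales transcript abundance to a fixed total after correcting for length. The median detected gene lay 0.37 and 0.14 below its own mean on the log2(TPM + 0.1) scale in libraries 1 and 2, and 0.52 above it in library 3. A higher TPM in library 3 is therefore to be read against that shift.

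Of the 10 genes, 9 were detected, meaning a mean expected count of at least 10, against 49.9% of all protein-coding genes. The exception was Lcn2. In such bulk libraries fewer cells of a type and less RNA per cell cannot be told apart. The median of the mean levels was 30.1 TPM over the 10 genes and 4.98 TPM over the detected protein-coding genes. In order of mean TPM the genes ran Fth1, Ftl1, Tfrc, Slc11a1, Slc11a2, Slc40a1, Ireb2, Aco1, Steap3 and Lcn2. Between neighbours in this order the ranges over libraries did not overlap for Ftl1 above Tfrc, Slc11a1 above Slc11a2, Aco1 above Steap3 and Steap3 above Lcn2. The other 5 neighbouring pairs overlapped, and Tfrc exceeded Slc11a1 in only 2 of the 3 libraries.

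**Figure D1:**
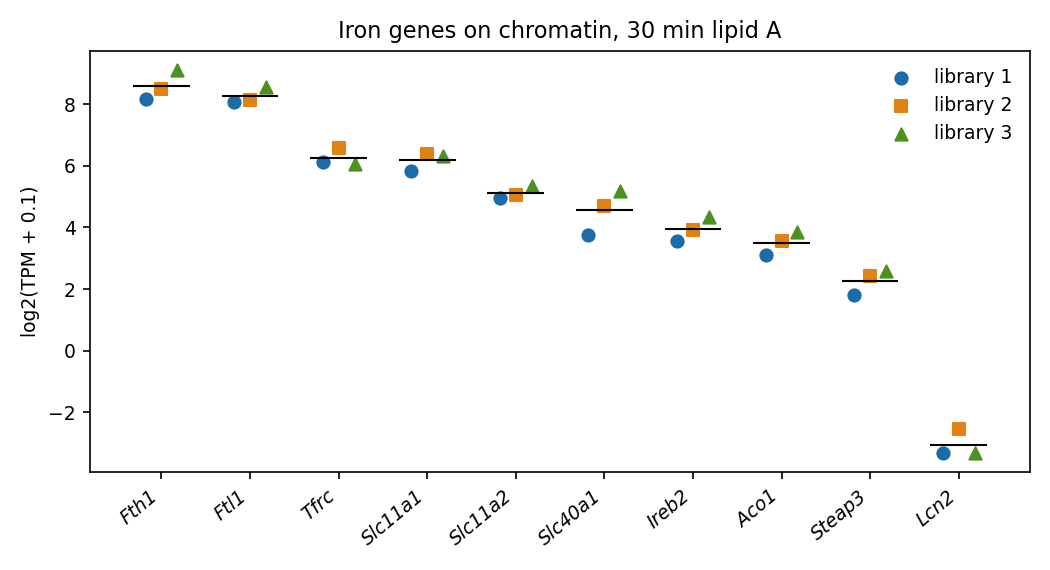
Level of each of the 10 genes as log2(TPM + 0.1), with 1 point per library and a line at the mean of the 3 libraries. The ferritin genes stand highest, 7 genes spread over the middle of the axis, and Lcn2 sits at the bottom with expected counts of 0, 1 and 0.

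Fth1 and Ftl1, the heavy and light chains, were the most abundant of the genes. Fth1 reached 291, 357 and 554 TPM in libraries 1 to 3 (400.4 ± 137, SD, n = 3), which ranked it 45th, 35th and 32nd among protein-coding genes. Its expected counts were 7803, 8290 and 8798. Ftl1 reached 271, 284 and 381 TPM (312 ± 60.2, SD, n = 3). Library 3 was highest for both genes, as it was for the median gene, and the ranges of Fth1 and Ftl1 overlapped. Fth1 exceeded Ftl1 in 3 of 3 libraries, by 0.10, 0.33 and 0.54 on the log2(TPM + 0.1) scale (0.32 ± 0.22, SD). The order was not stable to processing. In the second transcript table Fth1 lay below Ftl1 in all 3 libraries, with a mean difference of -0.40 ± 0.12. On CPM, without length correction, the mean difference was 1.10.

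Most of the RNA assigned to Fth1 went to transcript models that keep an intron. Fth1 lies on chromosome 19 at 9980598 to 9985098 on the plus strand of build mm10, and its main coding transcript Fth1-201 has 3 introns. The 3 most abundant models were noncoding, and each held a different intron of Fth1-201 in full. Fth1-208 held intron 1, of 1197 bases, and took 30.7% ± 1.40 of the gene's TPM (SD, n = 3). Fth1-202 held intron 2, of 232 bases, and took 36.3% ± 0.77. Fth1-207 held intron 3, of 95 bases, with part of intron 1, and took 26.8% ± 2.08. The spliced Fth1-201 took 3.78% ± 2.02.

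Retained-intron models together took 97.4%, 95.1% and 92.8% of Fth1 in libraries 1 to 3 (95.1% ± 2.30, SD, n = 3). In reads the share was 96.8% ± 1.44, and in the second transcript table it was 96.2% ± 1.16 of TPM. Among the 6777 detected protein-coding genes with an annotated retained-intron model, 62 genes, or 0.915%, had a share at least as high. In the second table it was 47 genes, or 0.694%. Fth1 was thus near the top of the range on both quantifications. The share depends on the models, because reads in exons that several models hold are divided among them and introns outside any model are not counted.

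Ftl1 followed the same form to a lesser degree. The gene lies on chromosome 7 at 45457944 to 45459884 on the minus strand. Its retained-intron models took 72.9%, 68.8% and 64.5% of its TPM (68.8% ± 4.20, SD, n = 3). Ftl1-205, with part of intron 1, took 35.2% ± 2.94, Ftl1-206, with part of intron 2, took 33.6% ± 1.28, and the coding Ftl1-201 took 30.1% ± 4.62. In reads the retained share was 59.5% ± 5.14, and in the second table it was 72.6% ± 2.59 of TPM. Coding models took only 10.2% ± 1.26 in that table. The model marked for nonsense-mediated decay took 17.2% ± 1.60 there, against 1.11% ± 0.43 in the first table. The retained share was lower in Ftl1 than in Fth1 in each of the 3 libraries, and the ranges did not overlap. Ftl1 shares 355 bases with the opposite-strand gene Gm10252, which held 118, 119 and 160 expected counts, and since the strand setting is not given, some of those reads cannot be assigned with certainty.

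**Figure D2:**
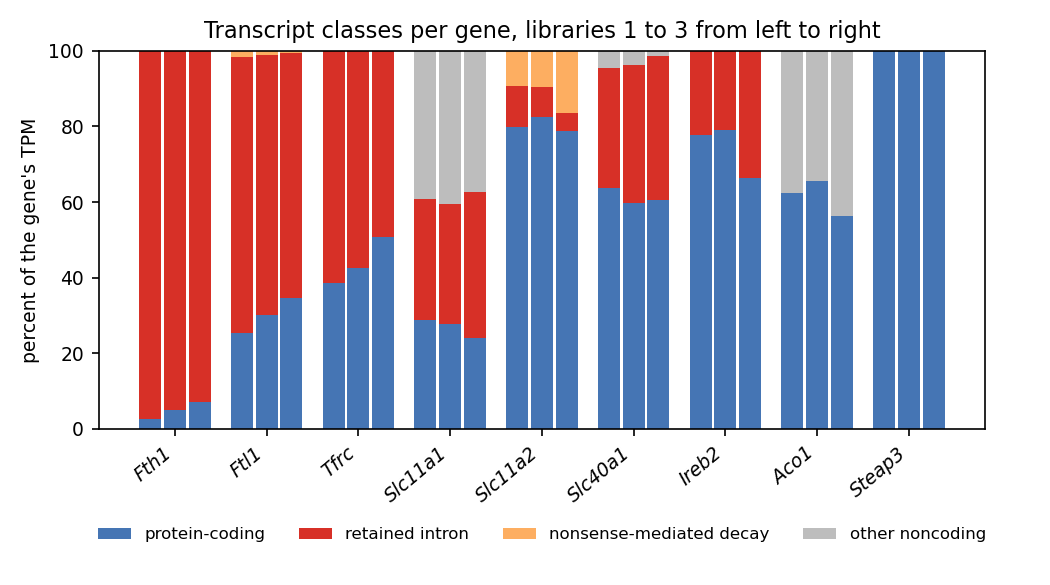
Share of each gene's TPM, in percent, by class of transcript model for the 9 detected genes, with 1 bar per library in the order 1 to 3. Retained-intron models fill nearly the whole bar of Fth1 and most of that of Ftl1, while Steap3 has coding models alone.

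Ferritin has many processed copies in the mouse genome, and these could take or lend reads. Of 14 other annotated genes with symbols that start with Fth or Ftl, 12 were listed at 0 in all 3 libraries. They include the Fthl17 genes of chromosome X, which are not annotated as processed copies. Ftl1-ps1 averaged 4.94 TPM and Fth-ps2 averaged 4.13 TPM. Together the 14 genes held 0.70%, 0.95% and 0.81% of all ferritin reads in libraries 1 to 3. By sequence, 11 genes matched Ftl1 transcripts at 95% identity or more over at least 100 nt. Of these, 4 are annotated as pseudogenes, and the others include miRNA genes that matched over 109 nt. The summed mean count of the 11 genes was 2.42% of that of Ftl1. Both sets were therefore small beside Fth1 and Ftl1 at the counts the authors assigned.

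Slc40a1 encodes ferroportin, the iron exporter of mammalian cells. It lies on chromosome 1 at 45908068 to 45926523 on the minus strand. Its level was 13.5, 25.9 and 36.6 TPM in libraries 1 to 3 (25.3 ± 11.6, SD, n = 3). Its highest value was 2.71 times its lowest, the widest TPM ratio of the 9 detected genes. The coding Slc40a1-201 took 61.3% ± 2.10 of the TPM and Slc40a1-208, a retained-intron model with part of intron 5, took 31.4% ± 3.04. Across libraries these shares varied little beside the change in level.

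Tfrc encodes the transferrin receptor and lies on chromosome 16 at 32608920 to 32632794 on the plus strand. It reached 69.5, 96.3 and 66.3 TPM (77.4 ± 16.5, SD, n = 3), with expected counts of 3973, 5340 and 2402. Unlike the median gene, it was highest in library 2 and lowest in library 3. The coding Tfrc-201 took 31.1% ± 5.88 of the TPM, and the retained-intron models Tfrc-205, Tfrc-207 and Tfrc-204 took 18.7% ± 1.20, 16.9% ± 3.36 and 12.6% ± 3.43. Retained-intron models summed to 56.1% ± 6.13 of TPM but to 27.7% ± 6.82 of reads. The second table gave Tfrc 125 TPM ± 31.5 and a retained share of 28.8% ± 3.33. There Tfrc-203, a coding model of 166 bases, averaged 47.4 TPM, against 2.25 TPM in the first table.

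Slc11a2 encodes DMT1, which carries iron out of endosomes, and lies on chromosome 15 at 100387898 to 100425072 on the minus strand. Its level was 31.0, 32.9 and 40.6 TPM (34.9 ± 5.06, SD, n = 3), the smallest TPM ratio of highest to lowest of the detected genes at 1.31. The second table gave 52.9 TPM ± 10.3. Coding models took 80.4% ± 1.92 of its TPM and 97.1% ± 0.60 of its reads. Among them Slc11a2-205 took 29.7% ± 2.45, the short Slc11a2-203 took 28.6% ± 4.26 and Slc11a2-201 took 21.7% ± 1.08. Slc11a2-204, a model marked for nonsense-mediated decay, took 11.8% ± 4.08. Slc11a2 shares 402 bases with the opposite-strand gene Gm5475, which held 45, 46 and 26 expected counts. The limit given for Ftl1, that the strand setting is not known, holds here too.

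Steap3 encodes an endosomal ferrireductase and lies on chromosome 1 at 120190757 to 120272705 on the minus strand. Its level was 3.38, 5.23 and 5.97 TPM (4.86 ± 1.33, SD, n = 3), the lowest of the detected genes. All 5 of its models are coding. Steap3-205 took 45.1% ± 9.02, Steap3-203 took 42.1% ± 6.56 and Steap3-202 took 12.3% ± 4.07, so the main model was not fixed across libraries. The 3 uptake genes thus spanned levels from 4.86 to 77.4 TPM.

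Within each library the ferritin genes were compared with the uptake genes by the mean of log2(TPM + 0.1). Ferritin was higher by 3.84, 3.63 and 4.18 (3.88 ± 0.28, SD, higher in 3 of 3 libraries). Slc40a1 minus Tfrc was -2.35, -1.89 and -0.85, a mean of -1.70 ± 0.77, with Slc40a1 lower in 3 of 3 libraries. Flipping signs over 3 libraries cannot give a two-sided p below 0.25. In this exact permutation test both comparisons, and Fth1 against Ftl1, had p = 0.25, or 0.3 after Benjamini-Hochberg adjustment over the 6 contrasts computed. On CPM the ferritin difference was 2.24, and with coding transcripts of the second table alone its mean turned to -0.22.

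Slc11a1 encodes NRAMP1, which pumps iron and manganese out of the phagosome and away from engulfed bacteria. It lies on chromosome 1 at 74375195 to 74386062 on the plus strand. C57BL/6 mice carry a well-known loss-of-function allele of this gene, and these data measure its RNA and not its function. Its level was 57.2, 83.2 and 79.7 TPM (73.3 ± 14.1, SD, n = 3), with library 1 lowest. The coding Slc11a1-201 took 26.4% ± 2.44 of TPM, close to the processed transcript Slc11a1-206 at 25.4% ± 1.22. In expected counts they were far apart, at 921, 1142 and 636 for Slc11a1-201 and 68.2, 81.7 and 49.2 for the 378-base Slc11a1-206. The retained-intron model Slc11a1-202 took 22.2% ± 2.01 and the processed transcript Slc11a1-207 took 11.1% ± 0.53. Noncoding models together took 73.1% ± 2.45 of TPM and 47.9% ± 4.89 of reads.

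The related transporters of phagosome and endosome differed in level. Slc11a1 exceeded Slc11a2 in 3 of 3 libraries by 0.88, 1.33 and 0.97 on the log2(TPM + 0.1) scale (1.06 ± 0.24, SD, exact sign-flip permutation p = 0.25, adjusted 0.3). On CPM the differences were -0.08, 0.46 and 0.001 in libraries 1 to 3, a mean of 0.13, so the direction was not the same in every library. Counting coding models alone reversed it in all 3 libraries, to a mean of -0.52 ± 0.25, and to -1.12 ± 0.31 in the second table. The order of these genes therefore depended on which transcripts were counted.

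Ireb2 and Aco1 encode the iron regulatory proteins IRP2 and IRP1, of which the second doubles as cytosolic aconitase when it carries an iron-sulfur cluster. Ireb2 lies on chromosome 9 at 54863789 to 54912530 and Aco1 on chromosome 4 at 40143081 to 40198338, both on the plus strand. Ireb2 reached 11.6, 15.2 and 20.1 TPM (15.6 ± 4.29, SD, n = 3). Aco1 reached 8.52, 11.7 and 14.2 TPM (11.5 ± 2.87, SD, n = 3). Both were lowest in library 1 and highest in library 3, as the median gene was, and their ranges overlapped. Within a library Ireb2 exceeded Aco1 by 0.44, 0.37 and 0.50, a difference of 0.43 ± 0.06 on the log2(TPM + 0.1) scale that had the smallest SD of the 6 contrasts (exact sign-flip permutation p = 0.25, adjusted 0.3). On CPM the mean difference was 1.35.

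In the first table the sensor genes had most of their TPM in coding models. Ireb2-201 took 61.0% ± 5.97 of TPM, the retained-intron model Ireb2-202 took 25.6% ± 6.98 and the coding Ireb2-203 took 13.4% ± 12.4, the last listed at 0 in library 3. Aco1-201 took 61.4% ± 4.66 and the processed transcript Aco1-203 took 24.3% ± 1.07. Noncoding models of Aco1 were short and held 4.91% ± 1.13 of its reads. In the second table noncoding models took 50.2% ± 3.39 of the TPM of Aco1.

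Lcn2 encodes lipocalin 2, which captures bacterial siderophores and starves microbes of iron. It is a known product of TLR4 signalling and is also stored in neutrophil granules. It lies on chromosome 2 at 32384633 to 32388252 on the minus strand. Its expected counts were 0, 1 and 0. In libraries 1 and 3 a count of 0 allows up to 3 counts, or 0.184 and 0.185 CPM. This limit covers counting error only. In the first table the single read, in library 2, fell on the retained-intron model Lcn2-203. The second table gave Lcn2 2 counts in library 2, with 47.0% of its TPM there on coding models. The median neutrophil marker was also near 0, and the difference between them was -0.13 ± 0.82 on the log2(TPM + 0.1) scale (lower in 2 of 3 libraries, exact sign-flip permutation p = 0.75, adjusted 0.75). Both lay at or near a count of 0, so no fold is given.

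The choice of transcripts mattered most for Fth1. Of the 9 detected genes, 2 had a noncoding model as their most abundant transcript, Fth1 and Ftl1, against 29.3% of detected protein-coding genes. Of the 7 detected genes with a retained-intron model, 3 had more than 50% of their TPM in such models, Fth1, Ftl1 and Tfrc, against 33.1% of detected protein-coding genes with such a model. In the second table it was 2 of the 7, Fth1 and Ftl1, against 36.4%. The median retained share was 35.4% over these 7 genes and 39.3% over the 6777 background genes. As a group, then, the iron genes lay near the background, and Fth1 lay far above it.

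With coding transcripts alone, Fth1 stood at 7.53, 17.6 and 39.9 TPM in libraries 1 to 3. Ftl1 stood at 69.1, 85.3 and 132 TPM. Fth1 now lay below Ftl1 in every library, by a mean of -2.39 ± 0.73 on the log2(TPM + 0.1) scale. Tfrc stood at 26.9, 40.9 and 33.6 coding TPM, above Fth1 in libraries 1 and 2 and below it in library 3. The ferritin mean stayed above the uptake mean in 3 of 3 libraries, by 1.28 ± 0.60. Slc11a1 stood at 16.5, 23.1 and 19.2 coding TPM.

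The coding transcripts of the second table gave another order. Fth1 stood at 8.58, 8.84 and 21.6 TPM and Ftl1 at 38.6, 33.9 and 58.0 TPM, so Fth1 was again the lower, by a mean of -1.84 ± 0.37. Tfrc stood at 93.3, 113 and 62.1 TPM, above both ferritin genes in 3 of 3 libraries, with the short Tfrc-203 holding 47.4 TPM of its mean of 89.6 TPM. Ferritin minus uptake was -0.57, -0.59 and 0.50 in libraries 1 to 3, a mean of -0.22 ± 0.62. Whether ferritin exceeds the uptake genes in coding transcripts thus depended on the quantification. The first table gave Tfrc-203 0, 0 and 1 expected counts in libraries 1 to 3. In library 3 the other coding models in the second table, Tfrc-201 and Tfrc-202, stood at 18.6 and 13.7 TPM. Tfrc lay above Ftl1 there only with Tfrc-203 counted, and in libraries 1 and 2 also without it. Ferritin minus uptake was not computed without Tfrc-203, so the part of this model in the mean of -0.22 was not tested. Both coding comparisons were added after the data had been seen.

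**Figure D3:**
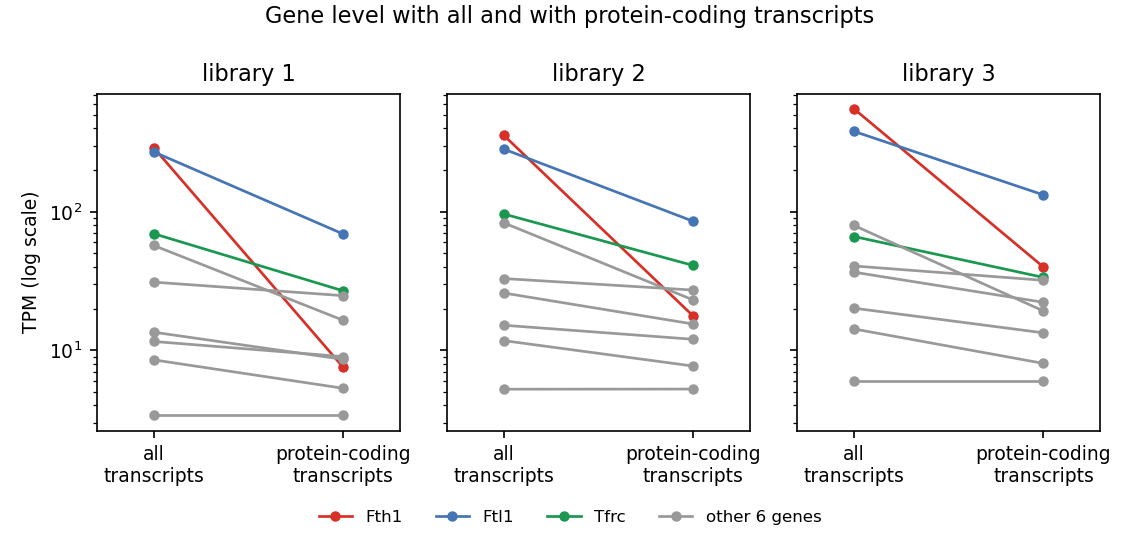
TPM (log scale) of the 9 detected genes in each library, counted over all transcripts (left points) and over protein-coding transcripts alone (right points). Fth1 drops from 291, 357 and 554 TPM to 7.53, 17.6 and 39.9 TPM and crosses below Ftl1 in every library.

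In the first table the transcripts that carry a stem-loop match, as printed above, took a different share of each gene's TPM. In Slc40a1 they took 96.7% ± 1.57 of TPM (SD, n = 3), since both Slc40a1-201 and Slc40a1-208 hold it. In Tfrc they took 43.7% ± 2.59. In Fth1 they took 35.5% ± 2.78, most of it in the retained-intron model Fth1-208, which holds the element and intron 1, and in Ftl1 they took 31.2% ± 4.20. In Slc11a2 the match lies in the 3′ untranslated region of Slc11a2-205, which took 29.7% ± 2.45, and is absent from Slc11a2-201, which took 21.7% ± 1.08. Slc11a2-205 had a higher share than Slc11a2-201 in 3 of 3 libraries. The short Slc11a2-203, which also lacks the match, took 28.6% ± 4.26 and exceeded Slc11a2-205 in library 2. In the second table Slc40a1-207, which lacks the match, averaged 4.32 TPM, beside 26.6 TPM for Slc40a1 as a whole. Tfrc-201 and Tfrc-204 averaged 19.0 and 8.96 TPM there, beside 125 TPM for Tfrc. Models without the match, some of them short, were not shown to be RNA that lacks it.

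The spread between libraries was tested for all genes on counts scaled by the TMM method, which sets most genes level across libraries. No gene of 13309 passed an adjusted p of 0.05 in edgeR's quasi-likelihood fit, a share of 0%, and 655 genes, or 4.92%, had an unadjusted p below 0.05. The spread predicted at each level was fitted to these same genes, so both shares are set in part by the fit. The test therefore ranks genes against each other and does not measure how alike the libraries were. Of the 9 iron genes tested, 0 passed and 1 had an unadjusted p below 0.05. The median range over libraries was 0.52 in log2 CPM for the 9 genes and 0.51 for all tested genes.

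Fth1 and Tfrc stood at opposite ends. On the TMM scale Fth1 read 8.98, 8.97 and 8.97 log2 CPM, a range of 0.01, and ranked 13301 of 13309 genes by its ratio of spread to that predicted at its level. Its 1.91-fold TPM difference between libraries 1 and 3 was not seen on this scale. Tfrc read 8.01, 8.33 and 7.10 log2 CPM, a range of 1.23, with the lowest value in library 3 and rank 394. Its adjusted p was 0.96 in edgeR's quasi-likelihood fit, from an unadjusted value of 0.0285. The summed markers of dividing cells, mostly Mki67, were highest in library 1, where Tfrc was between its other values. Pcna, Top2a, Ccnb1 and Cdk1 were lowest in that library and Tk1 in library 2. The part of these markers in the Tfrc spread was not tested.

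The other genes lay between. Ireb2 read 6.45, 6.45 and 6.51 log2 CPM, the second narrowest range of the 9 at 0.07. Slc11a1, at 6.74, 7.04 and 6.30, and Slc40a1, at 6.21, 6.93 and 6.78, ranged over 0.74 and 0.72, with the lowest value in library 3 for Slc11a1 and in library 1 for Slc40a1. Ftl1 read 8.11, 7.88 and 7.65, lowest in library 3, where its TPM was highest. Slc11a2, Aco1 and Steap3 ranged over 0.52, 0.58 and 0.30. None of these spreads passed the test, which with 3 libraries has little power for ranges of this size, so this does not show that the libraries were alike.

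**Figure D4:**
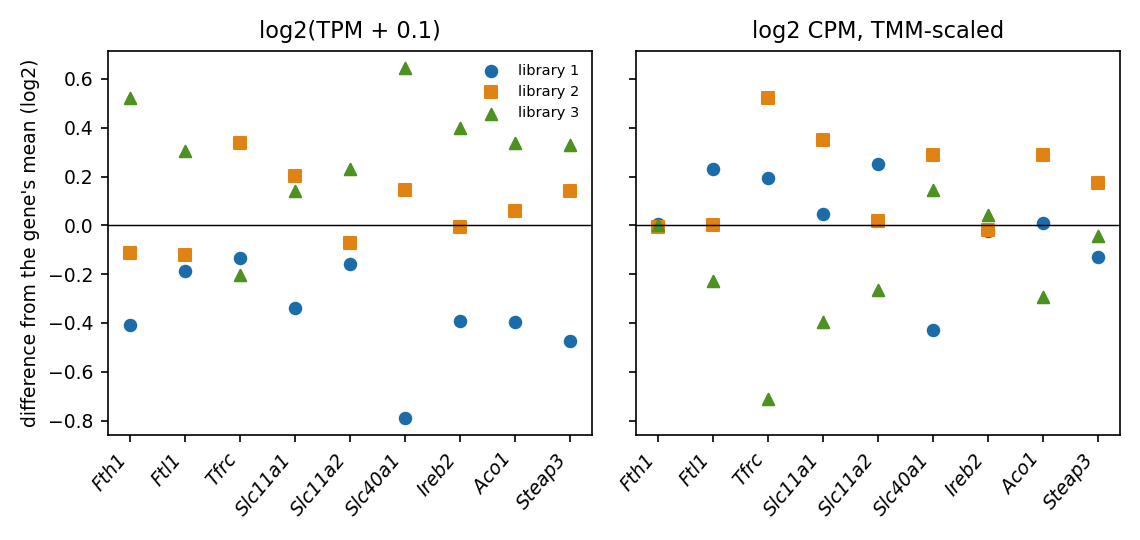
Difference of each library from the gene's own mean, in log2 units, for the 9 detected genes on the log2(TPM + 0.1) scale (left) and on TMM-scaled log2 CPM (right). On the right the 3 points of Fth1 coincide within 0.01 and those of Tfrc span 1.23, with library 3 lowest.

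By likeness of level over the 3 libraries, the protein-coding genes nearest to Fth1 in log2(TPM + 0.1) were Nfkbia, Srsf5 and Rsrp1, at Euclidean distances of 0.19, 0.20 and 0.21. Nfkbia, an early target and inhibitor of NF-κB, read 291, 322 and 602 TPM. The nearest to Tfrc were Plec, Stat3 and Gm49369, at distances of 0.23, 0.27 and 0.29. Lcn2 shared its values of 0, 0.07 and 0 TPM with 11 genes at distance 0, so no neighbour was distinct. With 3 libraries such likeness describes level more than pattern.

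A further list of 54 iron and heme genes gave the setting. Of these, 37 were detected, against 49.9% of all protein-coding genes. Of the 54 genes, 15 averaged at least 10 TPM and 7 were listed at 0 in all libraries. The 17 undetected genes included Hamp, which encodes the hormone hepcidin, and Steap1 and Steap2, relatives of Steap3. Export and hepcidin control was the least represented role, with 2 of 9 genes detected: Cp, which encodes the ferroxidase ceruloplasmin, at 11.3 TPM ± 3.57 and Hfe at 2.57 TPM ± 1.77. Heme breakdown had 4 of 4 genes detected, a role too small for its share to say much. Its leading genes were Blvrb at 18.0 TPM ± 7.20 and Blvra at 15.8 TPM ± 3.41, the biliverdin reductases.

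In mean TPM, Nfe2l2 and Lrp1 of this list lay above Tfrc and below both ferritin genes. The other genes named in this paragraph lay below Tfrc. Nfe2l2, which encodes the oxidative-stress factor NRF2, a known activator of ferritin genes, averaged 256 TPM ± 131. Bach1, the heme-sensing repressor of the same targets, averaged 36.6 TPM ± 9.40. Lrp1, the receptor for heme bound to hemopexin and for many other ligands, averaged 224 TPM ± 45.6, and the heme exporter Flvcr1 averaged 37.8 TPM ± 10.7. Of the genes that load or degrade ferritin, the iron chaperone Pcbp2 averaged 63.9 TPM ± 16.6 and the ferritin autophagy receptor Ncoa4 averaged 30.0 TPM ± 7.88.

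The other roles included transferrin and the synthesis of heme. Trf, the gene of transferrin itself, read 25.6, 85.0 and 105 TPM, with library 1 low, and the lysosomal channel Mcoln1 averaged 46.7 TPM ± 18.3. Of heme synthesis 7 of 8 genes were detected, led by Ppox at 21.1 TPM ± 5.99 and Alas1 at 7.91 TPM ± 3.08. Of the mitochondrial genes 5 of 6 were detected, led by the iron importers Slc25a28 at 18.9 TPM ± 7.99 and Slc25a37 at 16.7 TPM ± 6.20. Over the whole list the median of the mean levels was 3.56 TPM, below the 30.1 TPM of the 10 iron storage and transport genes, a description that the choice of the genes fixes in part.

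**Figure D5:**
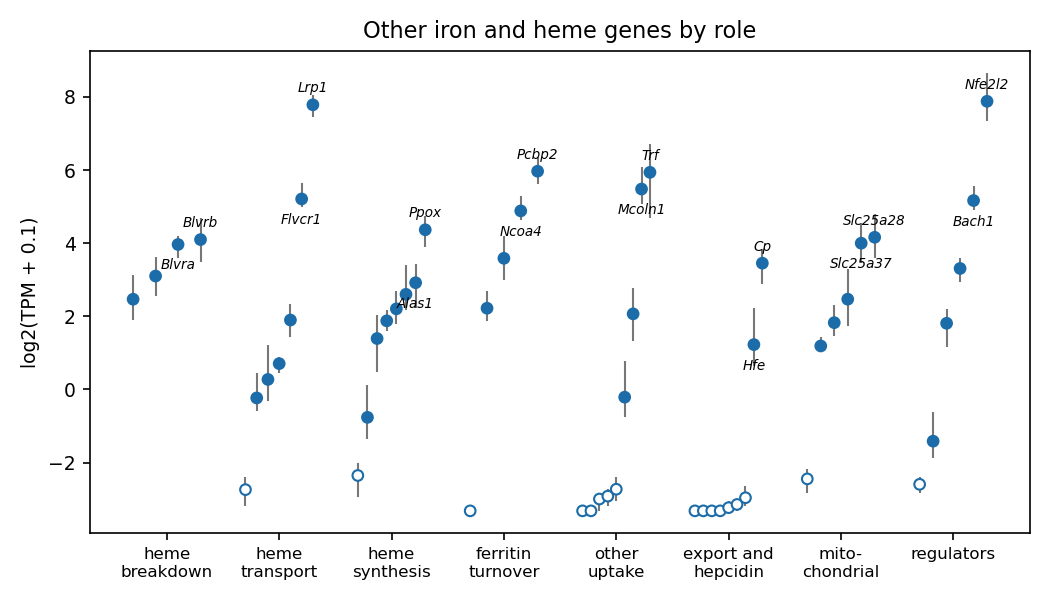
Mean log2(TPM + 0.1) over 3 libraries of the 54 other iron and heme genes, grouped by role, with vertical lines from the lowest to the highest library, filled points for detected genes and open points for undetected ones. The 2 highest genes of each role are named, and 7 of the 9 export and hepcidin genes are open points at the bottom.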

How the data were processed

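Chromatin-bound RNA was measured in 3 libraries of 1 group of lipid A-treated macrophages. The authors deposited expected counts and TPM per gene and transcript for mm10 and GENCODE M21, per the file headers and deposited notes. The deposited tables also give posterior mean TPM, credible bounds, treated as scores, and the percent of a gene's abundance in each transcript, per the file headers. A second deposited transcript table has estimated counts and TPM of its own. No aligner, quantifier or strand setting was given in the sources used here.

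The genes and lists were chosen with earlier results of these data known. Expected counts were rounded for edgeR 4.0.16 in R 4.3.3 (TMM, filterByExpr, intercept-only quasi-likelihood fit, deviance against the trended prior, Benjamini-Hochberg at 0.05), and the script was tested on simulated data. DESeq2 1.42.0 served as an alternative. Contrasts used log2(TPM + 0.1) with a pseudocount of 0.1 and exact sign-flip permutation. Named were all 10 genes, the 2 highest other genes of each role, the 2 highest ferritin copies, the 3 nearest genes of Fth1, Tfrc and Lcn2, and transcripts at or over 10% of a gene. Other genes named were chosen after their values were seen. CPM was computed over annotated genes. Introns were numbered on the coding transcript with the highest share among those with nearly the longest coding sequence. Copies were found with BLAST 2.17.0. Separate mice are not stated, so p-values measure only the spread between these libraries, which may be technical. Counting limits use 3 counts at 95% confidence. Alternatives were other pseudocounts, the second table, posterior mean TPM, TPM over genes of at least 300 nt, CPM, other scaling or filters, coding transcripts alone in either table and leaving out each replicate.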

Additional observations from a re-analysis of the deposited data

How the results depend on the processing

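All 10 genes kept their detection call when it was set at a mean of 1 TPM or at 10 counts in every library, and 0 of them passed the spread test under any setting. The count over all genes, 0 as reported, was 117 without a filter on low counts, 7 on the second table's counts, 54 as DESeq2 dispersion outliers, and 0 to 49 on leaving out 1 replicate, with 17 without replicate 1 and 49 without replicate 2. Fth1 minus Ftl1 reversed to -0.40 in the second table and to -2.39 with coding transcripts alone, and Slc11a1 minus Slc11a2 reversed to -0.52 with coding transcripts alone. With coding transcripts of the second table these were -1.84 and -1.12, and ferritin minus uptake reversed to -0.22 with the short Tfrc-203 counted. Both coding alternatives were chosen after seeing the data. Lcn2 minus the neutrophil median reversed to 0.16 with posterior mean TPM and to 0.22 without replicate 3, with a range of -0.58 to 0.22 on leaving out 1 replicate, all at or near 0 counts. The cause of these reversals was not tested. Slc40a1 minus Tfrc and Ireb2 minus Aco1 kept their direction under every alternative run, and ferritin minus uptake under all but that 1. On leaving out 1 replicate their ranges were -2.12 to -1.37, 0.40 to 0.47 and 3.73 to 4.01. Rescaling TPM to genes of 300 nt or longer raised every gene's level, as its smaller total implies, Fth1 to 1138 TPM and Tfrc to 232 TPM, and kept the direction of every contrast. No paired analysis was possible because there was 1 group. The smallest sign-flip p of 0.25 means that those tests say nothing about stability. For gene levels, depth limits Lcn2 alone among the 10 genes. Some transcript shares rest on few reads, such as Aco1-203 with 12.3, 11.9 and 10.3 expected counts and Ireb2-203 with 22.9, 39.9 and 0.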
